A study of Mus musculus with 24 samples.

Results

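The bladder was set against 5 other solid tissues of the mouse: subcutaneous adipose, heart, liver, lung and skeletal muscle. It is represented by the 3 arrays labelled bladder, of 24 arrays in the series, and the 5 other tissues by 3 arrays each, 15 in all. All tissues came from untreated male C57BL/6 mice aged 7 weeks, and total RNA of the dissected tissue was hybridised to Illumina mouse BeadChips. The other 2 tissues of the series, mesothelium of the peritoneum and mesothelium pooled from pleura and pericardium, were left out of every test and are shown beside the bladder values. Neither the labels nor the methods say which layers of the bladder were taken, or whether separate animals lie behind a tissue's 3 arrays, so p-values measure the spread between arrays, which may be technical.

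The urinary bladder stores urine at low pressure and expels it on demand. Its lumen is lined by the urothelium, a layered epithelium of basal, intermediate and umbrella cells that keeps urine out of the tissue with uroplakin plaques, tight junctions and a keratin skeleton. Under it lie a fibroblast-rich lamina propria and the detrusor, a coat of smooth muscle that contracts after acetylcholine acts on muscarinic receptors. Part of the outer wall is covered by peritoneal mesothelium.

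Levels are given as log2 signal after background correction and quantile normalization, on a scale with no zero, on which a dark probe still has a level. Detection on an array required a detection score above 0.99, and 15537 of 46120 probes, detected on all 3 arrays of at least 1 of the 8 tissues, were tested. Bladder was called higher or lower than the mean of the 5 tissues, each tissue weighing the same, where limma's B-statistic was above 0 and the difference at least 2-fold. It was called higher or lower than each tissue where all 5 pairwise contrasts passed the same thresholds. Folds against the mean are differences of mean log2 levels. Where a tissue had no array detected, it was set at the detection floor of its arrays, or at its own signal where that was higher, and the fold is written "at least". Levels are compared between tissues, never between genes.

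By this rule 1961 probes were higher in bladder than the mean of the 5 tissues, 12.6% of those tested, and 1435 were lower, 9.24%. A smaller group of 541 probes, 3.48%, was higher in bladder than in each tissue, against 41 probes, 0.264%, that were lower than in each. On all 541 the lowest bladder array lay above the highest of the 15 other arrays. The rule nearly ensures this, so it is no further support, also where single genes of this group are described below as without overlap. At least 1 of the 5 tissues had no array detected for 457 of the 541, and 183 were detected on no array of the 5 tissues. Those 183 were tested because bladder, in some cases with mesothelium, detected them. Of the 541 probes 220 had lung as the tissue closest to bladder, 96 adipose, 79 each heart and skeletal muscle, and 67 liver. Of the 1435 lower probes 770 were detected on no bladder array, and the tissue with the highest level was liver for 512 and skeletal muscle for 377. Without the adipose array described next the counts were 2001, 1625, 557 and 44.

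Arrays detected 11864 to 12530 probes in bladder, within the 8862 to 13441 over all 24 arrays, and the lowest correlation between bladder arrays was 0.983. Over the tested probes the bladder mean correlated at 0.815 with lung, 0.781 with adipose, 0.763 with heart, 0.688 with skeletal muscle and 0.605 with liver, and at 0.824 with peritoneal mesothelium. Adipose array 1 stood apart: Actn3, the actinin of fast muscle fibres, read 13.07 on it and 5.39 and 4.98 on the other adipose arrays, and Ryr1, Casq1 and Mybpc1 were raised on it in the same way. In whole tissue, fewer cells of a type and less RNA per cell cannot be told apart.

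A gene name was known for 4969 of the tested probes, which carry 4487 names, and groups of genes were counted with 1 probe per gene. Of 4486 named genes 597 (13.3%) were higher than the mean, 342 (7.62%) lower, 134 (2.99%) higher than each tissue and 8 (0.178%) lower than each. The median log2 difference over these genes was 0.05, and -0.07 with undetected tissues at the floor. Many genes that define the urothelium and detrusor were not among the named and tested ones: of the 6 uroplakin genes 1, Upk3b, was tested, and of 39 smooth muscle genes 11, without Myh11, Des, Actg2 or Tagln.

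**Figure D1:**
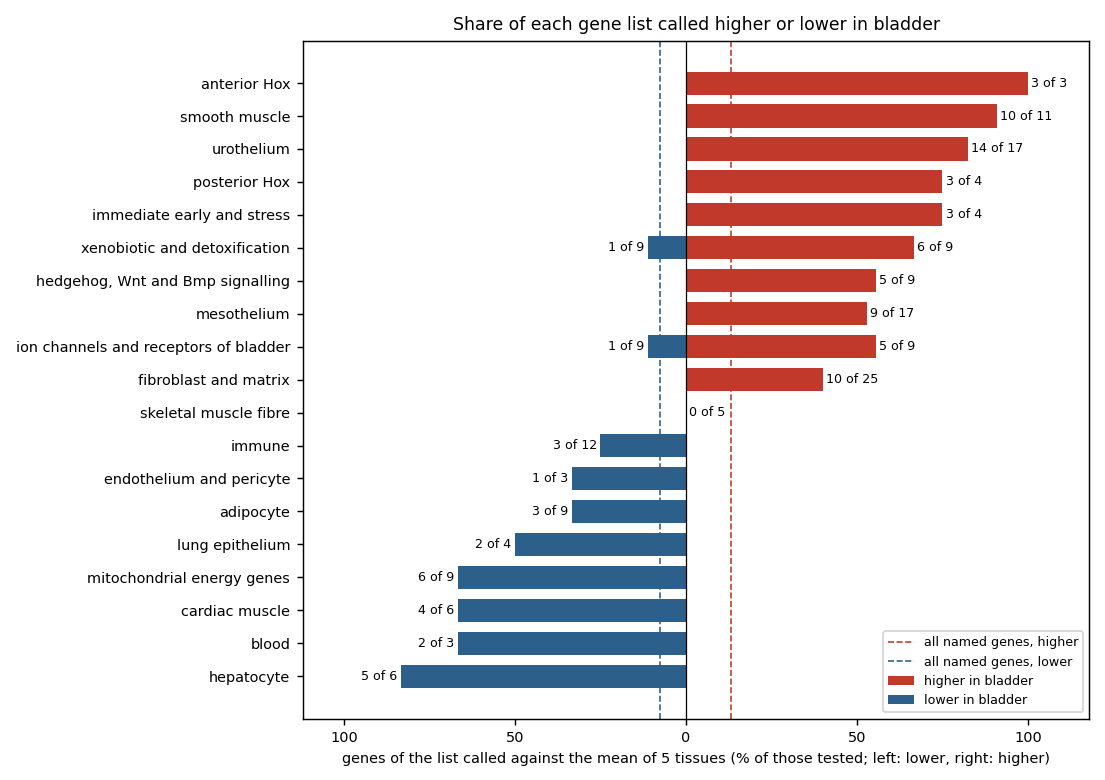
Share of the tested genes of each list that were higher (to the right) or lower (to the left) in bladder than the mean of 5 tissues, in percent, with the number called of those tested beside each bar; dashed lines give the shares over all named genes (13.3% and 7.62%). The urothelium list (14 of 17) and the smooth muscle list (10 of 11) lie farthest to the right among lists with more than 3 genes tested, and the hepatocyte list (5 of 6) farthest to the left. Some urothelium and smooth muscle genes were tested only because bladder detected them.

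Most tested urothelial genes were higher in bladder. Of 51 genes of the urothelium list 28 had a named probe and 17 were tested. All 17 were detected on all 3 bladder arrays, as were 3438 of the 4486 named genes. Some, such as Sprr2a1, were tested only because bladder detected them, so the share called is partly set by the filter. Of the 17 tested genes 14 were higher in bladder than the mean and 0 lower, and 11 were higher than in each tissue. Their median log2 difference was 4.79, and 3.35 with undetected tissues at the floor. The largest rise of any probe tested was that of Sprr2a1, a small proline-rich protein that cross-links the shell of barrier epithelia. Its probe may also detect near-identical Sprr2a copies. Sprr2a1 read 14.85, 14.92 and 14.80 in bladder and 5.05 to 6.03 in the 15 other arrays, where it was never detected. All bladder arrays lay far above all others, at least 302-fold above the mean and at least 219-fold above liver, whose detection floor was the highest (log2 difference 9.28, SE 0.18, limma adjusted p = 9.5e-16).

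Psca, a surface protein named for prostate stem cells and carried by urothelium, read 14.82, 14.64 and 14.64 in bladder and 6.10 to 7.84 elsewhere. That was 242-fold above the mean and 181-fold above skeletal muscle (adjusted p = 3.2e-14), with no overlap. Gata3, a transcription factor that maintains urothelial identity, read 12.07, 12.39 and 12.50 against 4.62 to 7.48. It was at least 45.9-fold above the mean and 38.1-fold above lung (adjusted p = 2.1e-11), and lung was the only one of the 5 tissues in which all 3 arrays detected it. Cldn4, a claudin of tight junctions, read 12.67, 12.83 and 12.40 in bladder and 5.99 to 7.84 elsewhere, 47.5-fold above the mean and 33.6-fold above lung (adjusted p = 2.4e-11).

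Klf5, a zinc finger factor needed for urothelial maturation in mice, separated less cleanly. It read 13.28, 13.09 and 13.002 in bladder, and lung was next with 11.01, 11.06 and 10.97. Bladder was at least 40.0-fold above the mean (adjusted p = 6.9e-09) and 4.32-fold above lung, and the probe did not pass in all 5 pairwise contrasts. Elf3, an epithelial transcription factor, Itgb4, the integrin of hemidesmosomes, and Sfn, the epithelial 14-3-3 protein, were also higher than in each tissue, by 3.41, 3.06 and 2.97 on the log2 scale against the mean. Dsg2, a desmosomal cadherin, was higher than the mean by 2.01.

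Keratins form the filaments of epithelial cells. Of 8 tested keratin genes 5 were higher in bladder than in each tissue: Krt8, Krt15, Krt18, Krt19 and Krt78. Krt15, a keratin of basal cells, read 12.69, 12.81 and 13.17 against 4.77 to 7.23 in the other tissues, at least 94.0-fold above the mean and at least 56.0-fold above liver, where no array detected it (adjusted p = 2.4e-10). Krt8 and Krt18, the pair that forms the filaments of simple epithelia, were also high in liver. Krt8 read 13.36, 13.40 and 13.43 in bladder, 12.08, 12.004 and 12.04 in liver and 12.18, 11.30 and 11.35 in lung. Bladder was the highest tissue on every array, yet 2.55-fold above liver, and the call against each tissue was lost in 8 of 33 alternatives. Krt18 read 12.96, 13.16 and 13.30 in bladder and 11.54, 11.28 and 11.27 in liver, a 3.43-fold gap (adjusted p against the mean = 2.6e-12).

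Krt19 was the keratin shared with mesothelium. It read 10.38, 10.40 and 10.57 in bladder, 9.70, 8.17 and 7.77 in lung, and was detected in no other of the 5 tissues, but peritoneal mesothelium read 10.62 to 10.82. Against the tested tissues bladder was at least 10.2-fold above the mean (adjusted p = 1.6e-10). Krt78 was faint, at 7.61 to 7.75, and undetected in all other tissues. Of the 3 tested urothelium-list genes that were not called, Rab27b, which moves vesicles to the cell surface, differed by 1.17, the integrin Itga6 by 0.82 and plakoglobin, Jup, by 0.19 on the log2 scale.

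Upk3b, the uroplakin with a named probe, is made by urothelium and by mesothelium. Its brightest probe read 12.06, 11.96 and 12.18 in bladder, 10.39, 10.08 and 10.42 in heart and 11.34, 10.02 and 9.90 in lung. Bladder was at least 15.9-fold above the mean (adjusted p = 2.7e-09) and 3.14-fold above lung, while both mesothelia were higher still, at 14.25 to 14.69 and 12.88 to 13.36. A dimmer probe of Upk3b was also called, at least 1.69-fold above the mean, and another was not detected in bladder.

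**Figure D2:**
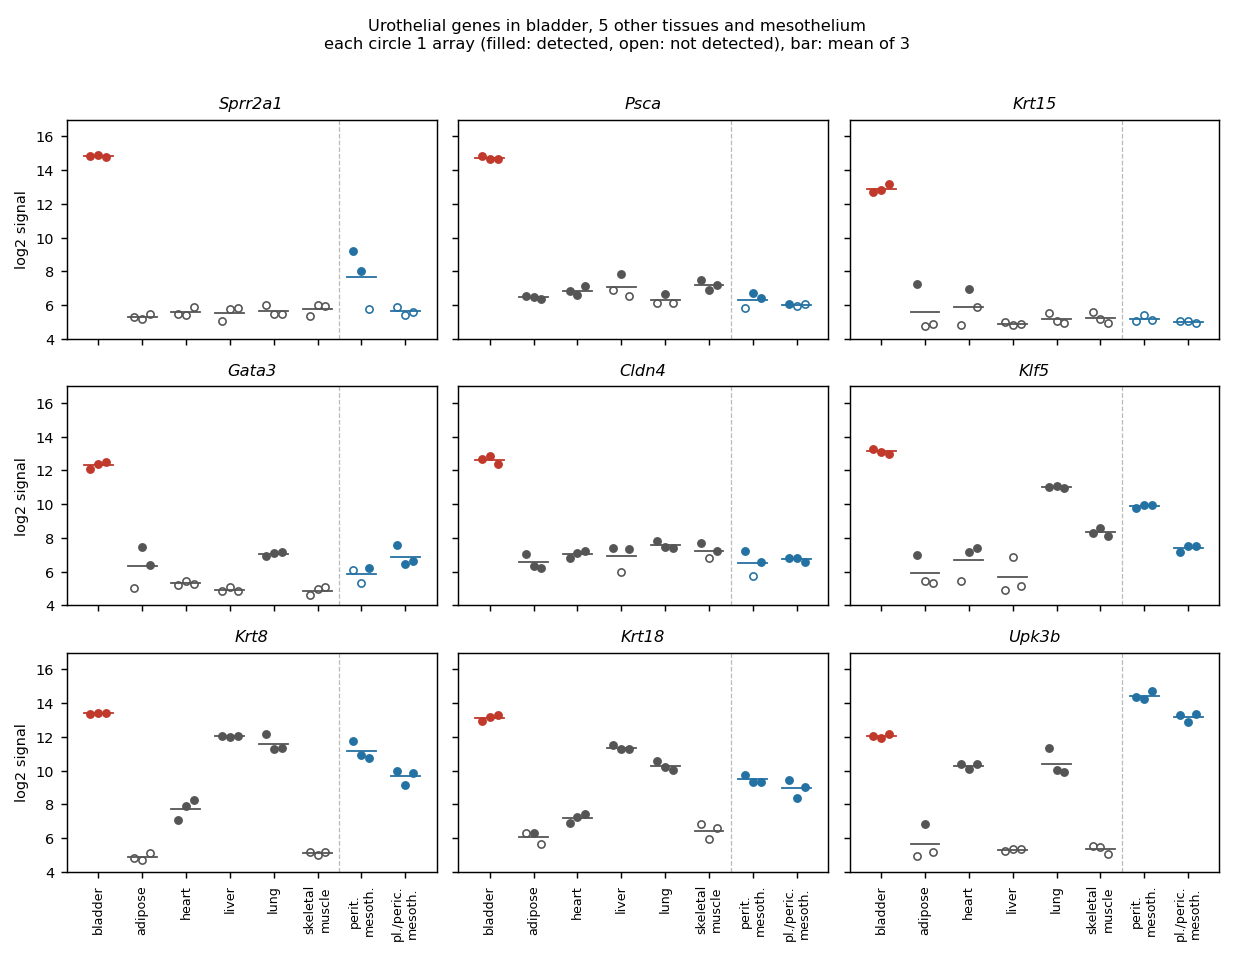
Log2 signal (vertical axis) of 9 urothelial and epithelial genes on each of the 24 arrays, grouped by tissue; filled circles are detected, open circles not detected, and bars are means of 3 arrays. The bladder circles of Sprr2a1 (14.80 to 14.92) lie far above the highest other solid-tissue array (6.03), whereas Krt8 in liver (12.004 to 12.08) comes close to bladder (13.36 to 13.43).

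Several genes outside the urothelium list were picked for the size of their rise over each of the 5 tissues. Their bright bladder and dark other tissues, and their small p-values, follow from that choice and are no further support. Sh3gl2, an endophilin that bends membranes in vesicle uptake and is best known from synapses, read 13.63, 13.72 and 13.59 in bladder and 5.09 to 7.86 elsewhere. It was at least 109-fold above the mean and 67.4-fold above lung (adjusted p = 6.3e-14), and the second probe of the gene was higher than in each tissue too. Rbfox3, an RNA-binding splicing factor used as a marker of neuron nuclei, read 12.47, 12.18 and 12.36 against 5.02 to 6.86, at least 49.8-fold above the mean (adjusted p = 1.7e-15). Of the 23 genes of the nerve and glia list only 2 were tested. Tubb3 differed by -0.20 and Syt1 by -0.59 on the log2 scale, and neither was called. Tubb3 read 6.48 in bladder, near the detection floor, and Syt1 was detected on no bladder array, so they cannot show whether the samples held nerve.

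Fxyd3, a regulator of the sodium pump in epithelia, read 13.67, 13.54 and 12.92, and lung followed with 10.22, 9.64 and 9.03. Bladder was at least 61.2-fold above the mean and 13.4-fold above lung (adjusted p = 4e-12). Ctse, an intracellular aspartic protease of epithelial and immune cells, read 11.17, 11.54 and 11.74 in bladder and was detected in none of the 5 tissues, which makes it at least 29.1-fold higher than their mean (adjusted p = 2.8e-15). Among them were 2 enzymes of sphingolipid synthesis, a pathway for which no list was tested. Fa2h, which adds a hydroxyl group to the fatty acids of sphingolipids, was at 10.41, 10.35 and 10.29, at least 13.3-fold above the mean. Degs2, which makes phytoceramides, was at least 4.39-fold above it, a call lost in 1 of 33 alternatives.

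Slc14a1 is a urea transporter known from red cells and kidney vessels and also present in urothelium. Its brightest probe read 9.26, 9.25 and 9.31 in bladder and was detected in no other tissue of the test. Bladder was at least 6.29-fold above the mean (adjusted p = 7.4e-14). On the second probe, which adipose array 3 also detected, it was at least 4.43-fold above the mean. Gsdmc2, of the gasdermin C family whose near-identical members may share its probe, read 9.57, 9.79 and 10.09, at least 9.19-fold above the mean. Tpbg, a membrane glycoprotein that dampens Wnt signalling, was at least 10.5-fold above the mean. Among transcription factors, Sox15 was at 8.61, 8.61 and 8.56 and Tfap2c, an epithelial and trophoblast factor, at 8.34, 8.24 and 7.88. Neither was detected on any of the 15 other arrays, and they stood at least 3.93-fold and at least 2.90-fold above the mean.

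The smooth muscle list followed the urothelium. Of its 39 genes 12 had a named probe and 11 were tested, all detected on all 3 bladder arrays. Some, such as Cnn1 and Cald1, were tested only because bladder detected them, so this share too is partly set by the filter. Of the 11 tested genes 10 were higher than the mean, 0 lower, and 6 higher than in each tissue. Their median log2 difference was 2.52, or 1.43 with undetected tissues at the floor. The lead gene was Acta2, the actin of smooth muscle, at 13.59, 13.51 and 13.83 in bladder and 5.07 to 8.25 in the other tissues. That is at least 87.6-fold above the mean and 64.8-fold above heart (adjusted p = 4.4e-13), with no array of another tissue near the bladder arrays. Mylk, the kinase that switches on smooth muscle myosin, was present everywhere but read 15.22, 15.01 and 14.94 in bladder against 8.07 to 11.83. Bladder exceeded the mean 40.97-fold and lung, the next tissue, 11.5-fold (adjusted p = 2.6e-12).

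Dimmer contractile genes kept the pattern. Cnn1, calponin, which binds actin in smooth muscle, read 9.29, 9.51 and 9.41 in bladder and was detected on none of the 15 arrays, at least 6.89-fold higher than the mean (adjusted p = 5.1e-14). Cald1, caldesmon, read 7.39, 7.71 and 9.04 and was also undetected elsewhere, at least 2.69-fold above the mean (adjusted p = 1.4e-07), although its 3 bladder arrays differed more from each other than those of Cnn1. Ppp1r12b, a subunit of the phosphatase that reverses myosin activation, was higher than in each tissue, by 1.90 on the log2 scale against the mean. Myl6, a myosin light chain of smooth and nonmuscle cells, was high in all tissues. Its bladder arrays at 14.23, 14.40 and 14.53 still exceeded the highest other array, 13.51 in lung, and the mean by 5.07-fold (adjusted p = 4.0e-09).

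Some smooth muscle genes were shared with striated muscle. Synm, an intermediate filament protein of muscle, read 12.76, 12.78 and 12.98 in bladder and 11.81, 11.38 and 11.06 in skeletal muscle. It stood at least 28.7-fold above the mean (adjusted p = 3.1e-08) and 2.68-fold above skeletal muscle. Chrm2, the more abundant of the muscarinic receptors in detrusor and the receptor that slows the heart, was at 8.15, 7.82 and 7.75 in bladder and at 9.22, 9.38 and 9.28 in heart. Heart was thus the highest tissue, and bladder was at least 1.68-fold above the mean of the 5 (adjusted p = 6.9e-09). Jph2, which holds calcium stores against the surface membrane of muscle, was detected in bladder at 7.25, 7.15 and 6.86 but lay under heart and skeletal muscle and was not called (log2 difference 0.73).

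The promoters of the called smooth muscle genes were searched for the CArG box, the site of serum response factor, which with myocardin switches on contractile genes. The box begins with CC and ends with GG around 6 bases, counted here where at most 1 of the 6 is C or G, and the pattern reads the same on both strands. All 11 tested genes matched a promoter in RefSeq (GRCm38.p6). In the 250 bases before the start 3 of the 10 called genes, Acta2, Myl6 and Synm, hold such a box, as does Jph2, which was not called; Myl6 has 2 promoters, of which 1 holds it. Such a box is in a promoter of 9.78% of all 27025 genes and in 8.59% of all 32851 promoters, and 1.47% hold one with no C or G among the 6. Of the 14 called urothelium genes 8 matched a promoter, and 1 of these 8 (12.5%), Cldn4, holds a box. The difference between the lists was not tested. The called genes Mylk, Cnn1, Cald1, Kcnmb1, Chrm2, Synpo2 and Ppp1r12b hold none. The promoters of Acta2, Myl6 and Synm are shown because they hold a box, with the boxes in capitals, 5′ to 3′ along the gene's strand. They lie on the minus strand at chr19:34255374-34255623, chr10:128493010-128493259 and chr7:67759743-67759992. The boxes of Acta2 begin 84 and 34 bases before the start, that of Myl6 50 bases and that of Synm 239 bases. A match is a run of letters and not a measured site.
Acta2: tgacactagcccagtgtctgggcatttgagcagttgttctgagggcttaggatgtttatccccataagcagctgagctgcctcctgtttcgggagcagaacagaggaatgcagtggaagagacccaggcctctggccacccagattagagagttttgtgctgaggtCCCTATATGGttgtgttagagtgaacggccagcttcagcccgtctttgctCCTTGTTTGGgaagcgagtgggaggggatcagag
Myl6: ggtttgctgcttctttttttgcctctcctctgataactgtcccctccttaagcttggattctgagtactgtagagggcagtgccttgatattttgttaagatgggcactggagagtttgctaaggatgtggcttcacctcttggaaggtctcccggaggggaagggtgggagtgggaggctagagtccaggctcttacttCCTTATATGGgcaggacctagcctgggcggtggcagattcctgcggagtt
Synm: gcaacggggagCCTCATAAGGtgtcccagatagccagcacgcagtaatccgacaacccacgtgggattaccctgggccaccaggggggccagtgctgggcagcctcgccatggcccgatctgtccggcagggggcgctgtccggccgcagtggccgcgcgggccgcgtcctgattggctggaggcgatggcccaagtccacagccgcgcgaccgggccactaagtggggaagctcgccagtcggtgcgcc

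**Figure D3:**
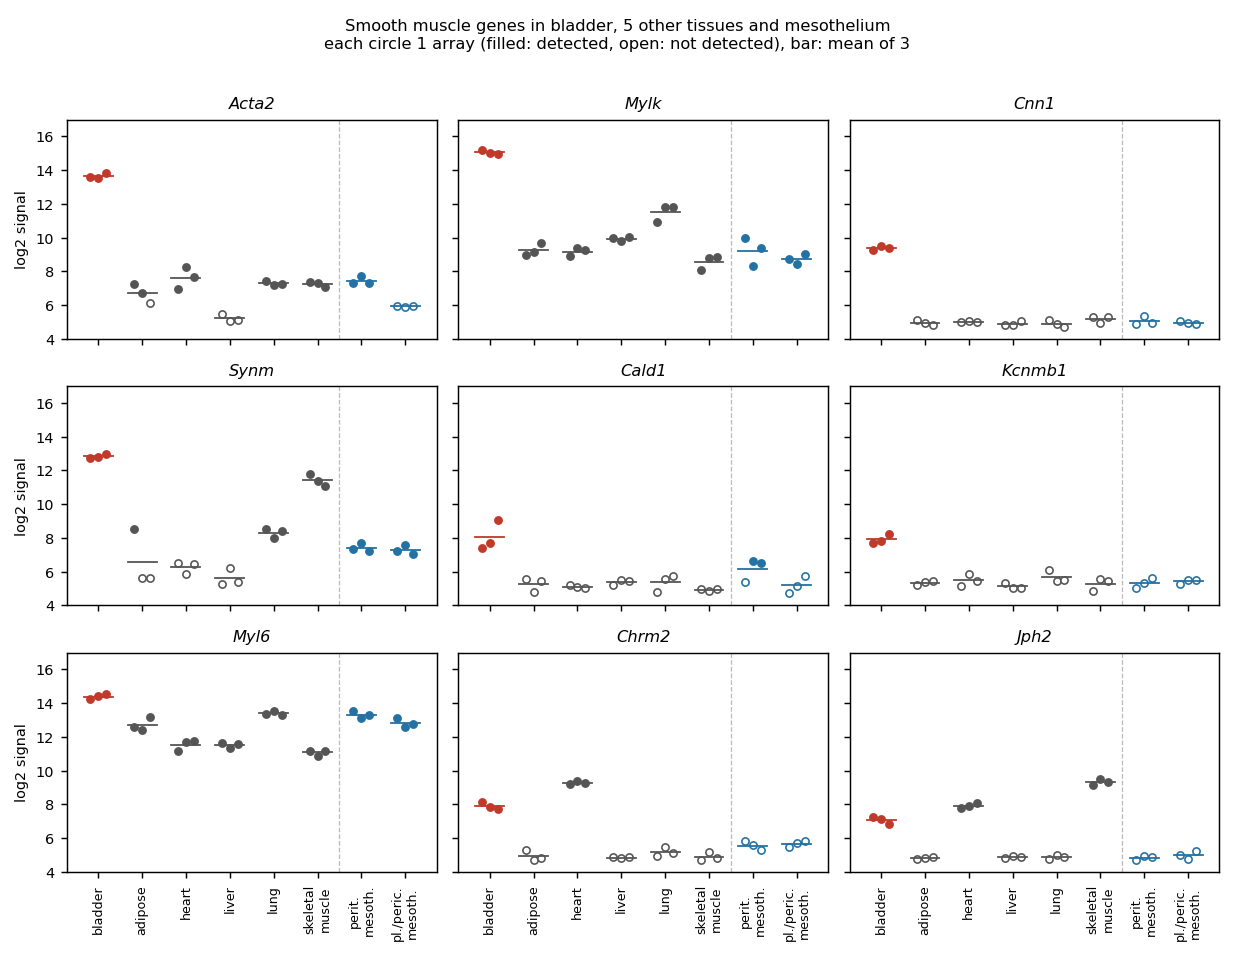
Log2 signal (vertical axis) of 9 smooth muscle genes on each of the 24 arrays, grouped by tissue; filled circles are detected, open circles not detected, and bars are means of 3 arrays. Acta2, Mylk and Cnn1 are highest in bladder on every array, while Chrm2 is higher in heart (9.22 to 9.38 against 7.75 to 8.15) and Jph2 in skeletal muscle.

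Channels and receptors that set the excitability of bladder were a smaller group. Of 9 tested 5 were higher than the mean, 1 was lower and 2 were higher than in each tissue. With 10 probes of irregular detection score kept in the background estimate, 1 of the 9 was called higher. Kcnmb1, the beta subunit that tunes the large-conductance potassium channel of smooth muscle, read 7.71, 7.79 and 8.24 in bladder and was undetected on the 15 other arrays, at least 2.45-fold above the mean (adjusted p = 8.5e-09). Kcnma1, the pore of the same channel, read 7.42, 7.57 and 8.19, and skeletal muscle overlapped with it at 7.80, 7.03 and 6.97. It was at least 2.06-fold above the mean (adjusted p = 1.6e-08). A second probe of Kcnma1 was undetected on the 15 other arrays, skeletal muscle included, and was higher than in each tissue. That call was lost in 5 of 33 alternatives. Cacna1c, the L-type calcium channel, was at 8.05, 8.23 and 8.17, under heart at 9.75 to 10.38, and at least 1.72-fold above the mean. Besides Slc14a1 and Chrm2, given above, the member called in the other direction was Aqp4, a water channel, by -2.28 on the log2 scale.

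Hox genes, which keep a record of a cell's position along the body axis, were mostly dim. Of the list counted as posterior 3 of 4 tested were higher than the mean, and of the anterior and middle list 3 of 3, with 0 lower. The posterior list was drawn wide: its tested genes were Hoxa9, Hoxb13, Hoxc8 and Hoxd8, and Hoxc8 and Hoxd8 are middle genes. Hoxd4 was higher than in each tissue: it read 8.47, 8.61 and 8.70 in bladder, 7.47, 7.01 and 6.81 in adipose, and was undetected in heart, liver, lung and skeletal muscle. It stood at least 3.52-fold above the mean and 2.82-fold above adipose (adjusted p = 4.2e-10). Hoxb2 read 9.77, 9.75 and 9.57 against 6.23 to 8.35, 4.95-fold above the mean and 2.95-fold above lung (adjusted p = 1.6e-06).

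Hoxd8 and Hoxa7 were shared with adipose and skeletal muscle, and Hoxa7 was detected on all 3 lung arrays too. Hoxd8 read 9.48, 9.46 and 9.68 in bladder, 8.83, 7.37 and 7.29 in adipose and 8.22, 8.47 and 8.30 in skeletal muscle, at least 5.06-fold above the mean (adjusted p = 4.2e-09). Hoxa7 read 9.61, 9.74 and 8.96 in bladder, overlapping adipose at 9.20, 8.78 and 8.29, and stood at least 3.92-fold above the mean (adjusted p = 8.8e-09). Peritoneal mesothelium was close to bladder for both, at 8.73 to 9.10 and 9.68 to 10.35.

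Hoxb13, the most posterior of the HoxB cluster and a gene of the hindgut and prostate, was faint but detected on every bladder array, at 6.92, 6.62 and 6.74. The 15 other arrays read 5.03 to 5.61, none detected, and the fold was at least 1.10 (adjusted p = 1.4e-07). This call was lost in 2 of 33 alternatives. Hoxa9, at 7.48, 7.48 and 7.30, overlapped skeletal muscle at 6.57 to 7.67, and its call (adjusted p = 0.00052) was lost in 17. Hoxc8 was not called, with a log2 difference of 0.19. With a shift of each array in place of normexp, and with 10 probes of irregular detection score kept in the background estimate, 1 of the 4 genes counted as posterior was called. It was the middle gene Hoxd8 in both.

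In the list of hedgehog, Wnt and Bmp signalling, pathways through which urothelium and stroma exchange signals, 5 of 9 tested genes were higher than the mean and 0 lower. Wnt5a, a ligand that acts mainly without beta-catenin, read 8.93, 8.91 and 9.26 in bladder and 4.76 to 6.53 elsewhere. This was at least 5.95-fold above the mean and at least 3.86-fold above liver, where it was undetected (adjusted p = 2.9e-08), with no overlap. Wnt2b, a ligand of the beta-catenin branch, was faint in bladder at 6.70, 6.76 and 6.59, at least 1.05-fold above the mean, and much brighter in peritoneal mesothelium at 10.03 to 10.95.

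Genes that receive the hedgehog signal were called as well. Smo, the signal transducer at the membrane, read 8.99, 8.97 and 9.60 in bladder, while the highest other array was 8.70 in lung. It stood at least 3.82-fold above the mean (adjusted p = 1.4e-05), though a second, dimmer probe was undetected in bladder and not called. Gli2, the transcription factor at the end of the pathway, read 8.00, 7.89 and 8.03 against 5.24 to 7.23, at least 2.13-fold above the mean (adjusted p = 6.4e-07). Sfrp1, which binds and blocks Wnt ligands, read 8.20, 8.24 and 7.91, above heart at 7.65, 7.40 and 6.92, and at least 2.51-fold above the mean (adjusted p = 5.9e-07). The Bmp antagonists Chrd and Fst differed by 0.70 and 0.07, and Wnt6 and Rspo1 by 0.18 and 0.12. Wnt6 and Rspo1 were detected on no array of bladder or of the 5 tissues and were tested only because mesothelium detected them. None of these 4 was called. With 10 probes of irregular detection score kept in the background estimate, 11 of the 17 urothelium genes, 1 of the 9 signalling genes and 5 of the 11 smooth muscle genes were called higher.

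**Figure D4:**
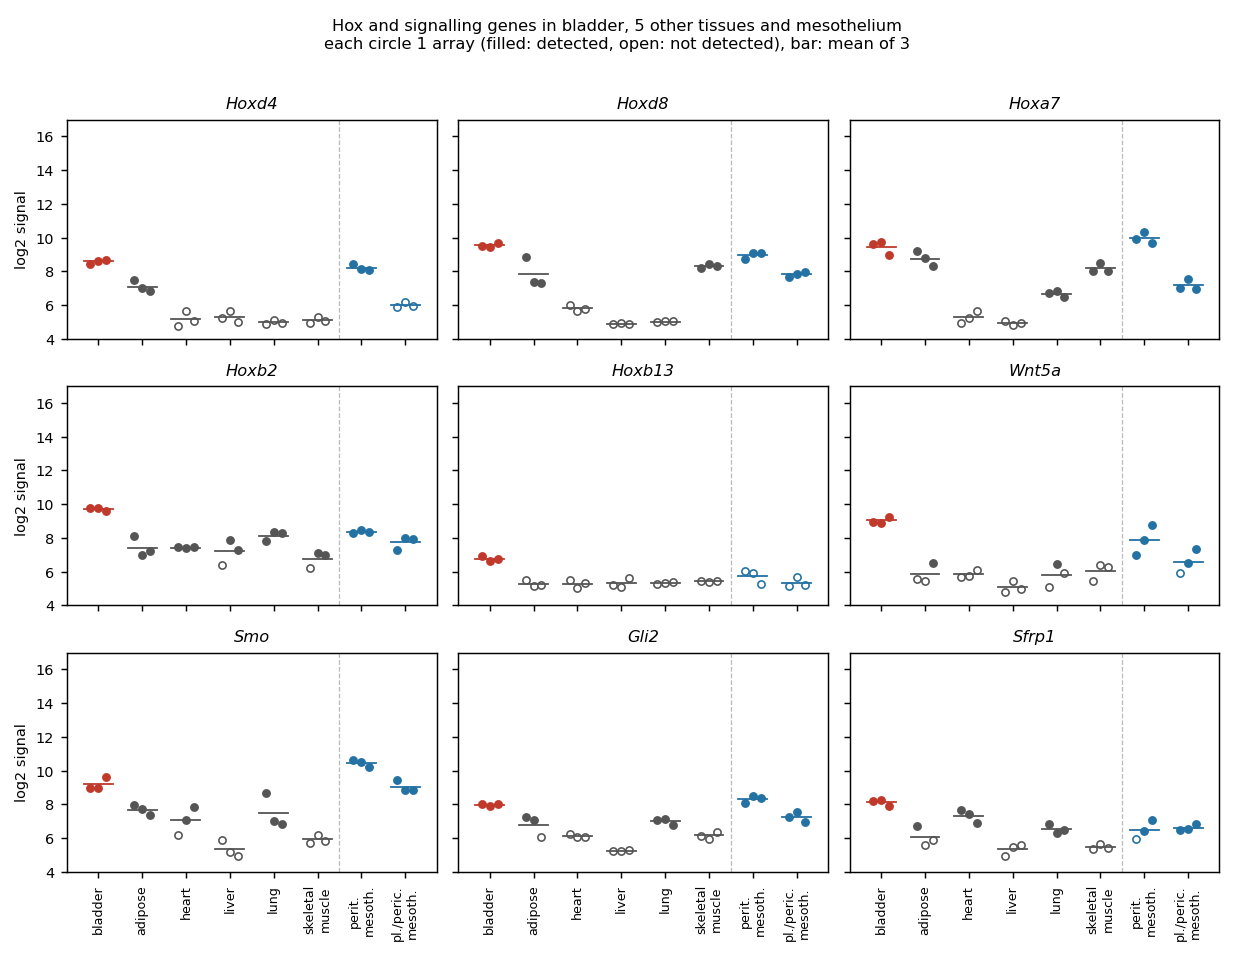
Log2 signal (vertical axis) of 5 Hox genes and 4 signalling genes on each of the 24 arrays, grouped by tissue; filled circles are detected, open circles not detected, and bars are means of 3 arrays. Wnt5a and Hoxb13 are highest in bladder among the solid tissues, with Hoxb13 at 6.62 to 6.92 close to background. Hoxd8 and Hoxa7 are also detected in adipose and skeletal muscle, and Hoxa7 in lung.

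Matrix and fibroblast genes rose in part. Of 25 tested 10 were higher than the mean, 0 lower and 1, Fbln1, higher than in each tissue; the median log2 difference was 0.70. Without liver, in which many of these genes were undetected, 4 of the 25 were called. Fbln1, a glycoprotein of elastic fibres and basement membranes, read 12.46, 12.29 and 12.06 in bladder and 10.80, 10.80 and 10.95 in heart, the next tissue. It was at least 14.1-fold above the mean and 2.68-fold above heart (adjusted p = 8.1e-13), and its second probe agreed in direction, at least 4.86-fold.

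Among 16 tested collagen genes 8 were higher than the mean and 0 lower. The count was 5 without liver, 5 with a shift of each array in place of normexp, and 4 with the 10 irregular probes kept. Those of the short-chain type VIII, which forms lattices under endothelium and around smooth muscle, stood out. Col8a1 read 9.32, 9.48 and 9.57 in bladder, with heart next at 7.69, 8.10 and 8.07, at least 6.04-fold above the mean (adjusted p = 1.8e-08). Col8a2 read 8.82, 9.05 and 8.91, with lung next at 7.55, 6.79 and 7.07, and was higher than in each tissue, at least 4.65-fold above the mean (adjusted p = 1.1e-08). The main fibrillar collagen chain did not separate bladder from adipose: Col1a1 read 11.90, 12.005 and 11.81 in bladder and 12.39, 11.48 and 11.97 in adipose, at least 3.58-fold above the mean of the 5 (adjusted p = 2.3e-07). Ltbp1, which stores latent TGF-beta in the matrix, read 9.37, 9.33 and 9.48 against at most 8.77 elsewhere, whereas for Loxl1, an elastin cross-linker, and Timp2, a protease inhibitor, lung was higher than bladder.

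Enzymes that detoxify foreign compounds and oxidants were higher in part. Of 9 tested 6 were higher than the mean and 1 lower, and 1, Gstm1, was higher than in each tissue. The glutathione transferases Gstm2 and Gstp1 differed by -0.12 and -0.53 on the log2 scale and were not called. Gstm1, a glutathione transferase, read 15.94, 15.96 and 15.94 in bladder and 11.52 to 14.27 elsewhere. It was 10.01-fold above the mean and 3.73-fold above liver (adjusted p = 5.9e-12), with no overlap. Ugt1a6a, an enzyme that couples phenols to glucuronic acid, read 13.41, 13.43 and 13.52 in bladder and overlapped with liver at 13.89, 13.18 and 13.62. It was at least 12.1-fold above the mean of the 5 (adjusted p = 2.5e-10). Ugt1a isoforms share exons, so signal cannot be assigned to 1 of them with certainty.

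Fmo5, a flavin oxygenase, also overlapped with liver, at 9.79, 10.07 and 10.29 in bladder and 10.17, 9.53 and 10.57 in liver, and was undetected in the other 4 tissues (adjusted p against the mean = 1.6e-10). Cyp1b1, a cytochrome P450 that oxidises aromatic compounds and steroids, read 10.26, 10.28 and 10.69 in bladder and 8.999, 9.67 and 9.65 in adipose, at least 5.84-fold above the mean (adjusted p = 2.2e-09). It was the only one of 23 tested cytochrome P450 genes called higher, against 13 called lower. Those lower genes are of the Cyp2, Cyp3 and Cyp4 families of liver, and without liver 0 of the 23 were called lower. Gsta2, a further glutathione transferase, was at 9.28, 9.34 and 9.68, under liver at 11.68, 11.45 and 11.55. Aldh1a1, which makes retinoic acid, was the lower member at -1.84 on the log2 scale (adjusted p = 7.0e-05), a call lost in 3 of 33 alternatives.

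Of the immediate early and stress genes, which respond quickly to outside signals, 3 of 4 tested were called higher. Fosl2, a member of the AP-1 transcription factor family, read 11.25, 11.41 and 11.38 against 6.05 to 9.73, at least 8.18-fold above the mean and 4.03-fold above lung (adjusted p = 2.2e-10). Junb read 9.05, 9.06 and 8.70 against 6.20 to 8.33, 2.73-fold above the mean. Hspb1, a small heat shock protein abundant in muscle, overlapped with skeletal muscle and was 3.44-fold above the mean.

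Fewer genes were lower in bladder than in every other tissue. The largest drop was that of Hba-a1, an alpha globin of red cells, which read 6.92, 7.84 and 6.09 in bladder, detected on 2 of 3 arrays. The other tissues read from 10.21 in liver to 15.92 in lung. Bladder was 107-fold under the mean, 494-fold under lung and 11.5-fold under liver (log2 difference -6.75, SE 0.26, adjusted p = 3.2e-12). Alpha globin has near-identical gene copies, which the probe may not tell apart. Hbb-b1, a beta globin, was undetected in bladder at 6.11, 6.18 and 6.07 and read 7.09 to 11.41 elsewhere, a difference of -2.79 (adjusted p = 5.1e-08). Hbb-b2 was undetected as well and not called, at -0.65.

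Gpihbp1 and Nrp1 were named for the size of their drop below each tissue, not through a list. Gpihbp1, which anchors lipoprotein lipase to capillary endothelium, read 7.93, 7.93 and 7.70 in bladder and 9.42 to 12.32 elsewhere, 7.43-fold under the mean (adjusted p = 8.6e-09) and under each tissue. Nrp1, a co-receptor of vascular growth factor and semaphorins, read 9.52, 9.51 and 9.31 against 10.79 to 13.63, 5.36-fold under the mean (adjusted p = 6.6e-09), with a second probe 5.82-fold under it. In the endothelium and pericyte list 1 of 3 tested genes was lower. This was Eng, a TGF-beta co-receptor, at 7.77, 7.49 and 7.59, which overlapped adipose at 7.35 to 7.70 (log2 difference -1.50, adjusted p = 1.3e-07). Pecam1 differed by -1.68 and Emcn by -0.36, and neither was called. The part of blood left in the vessels in these differences was not tested.

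The other named genes with large drops were picked for that drop, except Lpl of the adipocyte list. Lpl, the lipase that frees fatty acids from blood lipoproteins, read 9.80, 10.04 and 9.98 in bladder, 15.35, 15.07 and 15.35 in adipose and 10.47, 10.44 and 10.43 in liver. Bladder was the lowest tissue on every array, 10.1-fold under the mean (adjusted p = 2.4e-12) but 1.42-fold under liver, so it was not called lower than each. Pxmp2, a channel of the peroxisome membrane, was undetected in bladder at 5.67, 5.72 and 5.38 and read 7.28 to 11.96 elsewhere, at least 43.8-fold lower than liver and at least 2.45-fold lower than lung (adjusted p = 3.9e-12).

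Nr1h3, the liver X receptor alpha, which switches on cholesterol export, read 7.75, 7.64 and 7.10 against 9.02 to 11.18, 5.51-fold under the mean (adjusted p = 8.8e-10). Gpcpd1, which splits glycerophosphocholine, read 7.19, 7.55 and 7.75 against 9.06 to 12.41, 9.26-fold under the mean (adjusted p = 5.8e-11). Gstk1, a glutathione transferase of mitochondria and peroxisomes, read 10.76, 10.69 and 10.62 against 12.02 to 13.45, 3.92-fold under the mean (adjusted p = 2e-09). In all 3 genes the highest bladder array lay under the lowest of the 15 others. Gstk1 thus ran opposite to Gstm1, which was highest in bladder.

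Mitochondrial energy genes were lower in 6 of 9 tested genes and higher in 0, with a median log2 difference of -1.30; without heart, and without skeletal muscle, 4 of the 9 were lower. Sdhb, a subunit of succinate dehydrogenase, read 10.59, 10.36 and 10.63 in bladder, 13.67 to 13.90 in heart and 10.06 to 11.21 in lung, 4.001-fold under the mean (adjusted p = 4.2e-07). Ogdh, of the citric acid cycle, read 9.36, 9.52 and 9.11 and was 3.62-fold under the mean (adjusted p = 2.5e-07). Cox7a1, the muscle form of a cytochrome oxidase subunit, read 7.79, 7.63 and 6.58 in bladder but 15.39 to 15.77 in heart and 15.14 to 15.24 in skeletal muscle, a log2 difference of -4.08 from the mean (adjusted p = 1.3e-08). Liver, at 6.36 to 7.30, was as low as bladder for Cox7a1, and lung overlapped bladder for Sdhb.

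**Figure D5:**
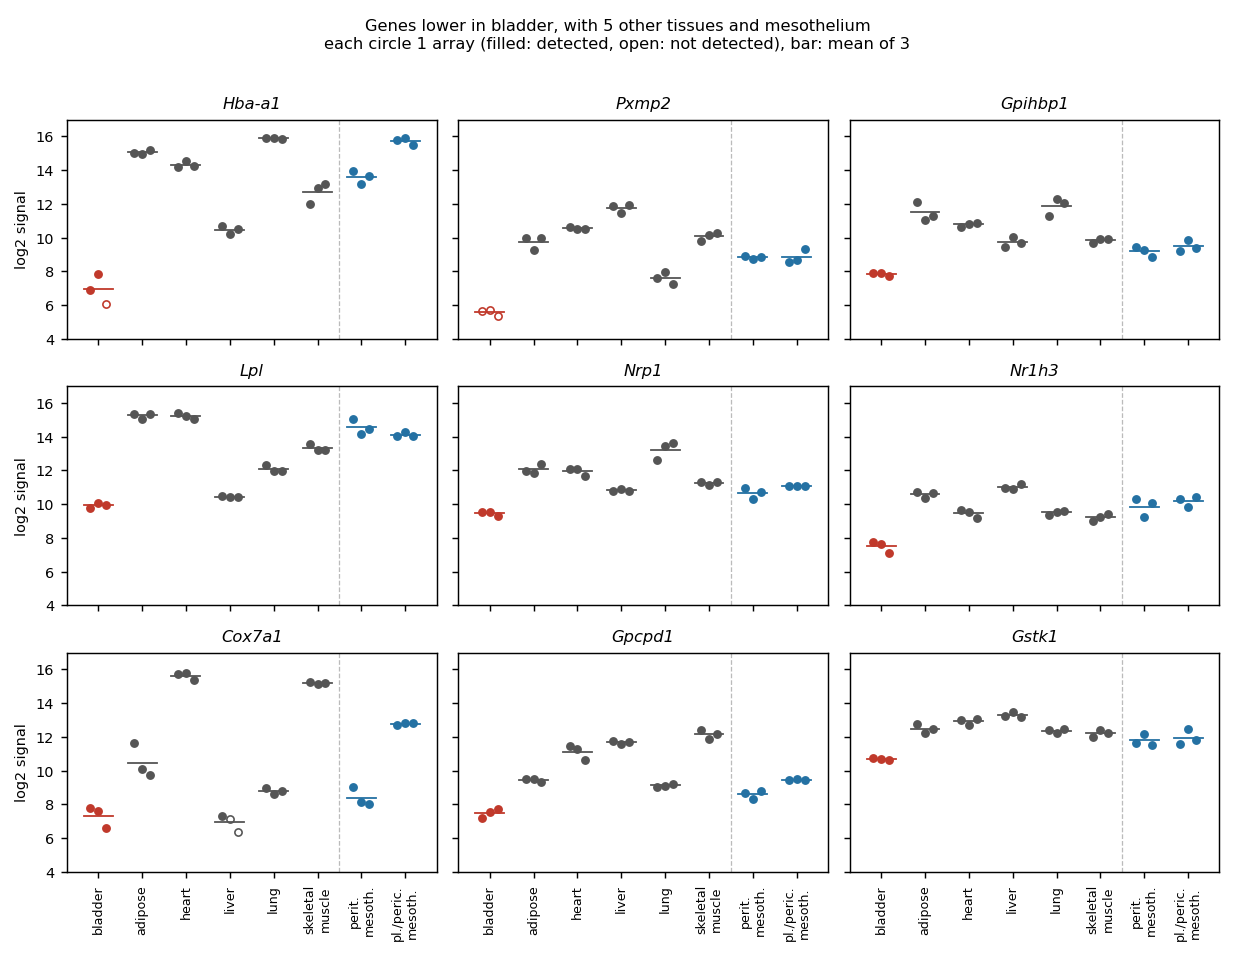
Log2 signal (vertical axis) of 9 genes lower in bladder on each of the 24 arrays, grouped by tissue; filled circles are detected, open circles not detected, and bars are means of 3 arrays. Hba-a1 is at 6.09 to 7.84 in bladder and at 10.21 or above in every other tissue tested, whereas Cox7a1 in liver (6.36 to 7.30) is as low as in bladder.

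Immune genes were not raised. Of 12 tested 0 were higher and 3 lower, with a median log2 difference of -1.04; without adipose array 1, 5 were lower, and without lung 1. S100a9, a neutrophil protein, was undetected on the 3 bladder arrays (5.15, 5.07 and 5.25), where lung read 11.36 to 12.26. Csf1r, the growth factor receptor of macrophages, read 7.15, 7.20 and 7.39 and fell by 1.21 from the mean (adjusted p = 7.6e-05), a call lost in 5 of 33 alternatives. Lyz1, a lysozyme gene whose probes may also detect Lyz2, was lower on both of its probes. Cd74, which escorts class II molecules, was bright in bladder at 11.02, 11.35 and 11.22 but did not differ from the mean beyond the threshold (log2 difference -0.25).

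Of the markers of the 5 reference tissues, those called lower than the mean were 5 of 6 tested hepatocyte genes, 4 of 6 of cardiac muscle, 2 of 4 of lung epithelium and 3 of 9 of adipocytes. Without liver 0 of the hepatocyte genes were lower, without lung 0 of the lung epithelium genes and without heart 1 of the cardiac genes, but without adipose 2 of the adipocyte genes still were, and without heart array 1 there were 5. The lung epithelium count fell to 1 in 15 of the 18 fits that left out 1 array. Of the adipocyte genes 7 were detected on all 3 bladder arrays. Pnpla2, a lipase of fat droplets, was bright in bladder at 11.69, 11.96 and 11.65, though called lower than the mean by -1.46 on the log2 scale, and Plin4, a droplet coat protein, read 11.03, 10.99 and 10.87 and was not called (0.64). Trf, the iron carrier transferrin, was the hepatocyte gene not called, at 11.28, 11.35 and 11.73 (-0.27). Apoa1, the main protein of high-density lipoprotein, was undetected on all 3 bladder arrays, with a log2 difference of -3.07. None of the 5 skeletal muscle fibre genes was called with all arrays, and 4 were called lower without adipose array 1. Actn3 was undetected in bladder, at 6.25, 5.81 and 6.06, and read 15.33 to 15.44 in skeletal muscle.

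The few tested markers of the male tract and of kidney and ureter were not called higher in bladder. They were tested because mesothelium, or for Cdh16 lung, detected them. Svs5, a seminal vesicle protein, read 6.02, 6.54 and 5.70 in bladder, detected on 1 array, and Spink3, a secreted protease inhibitor of the male tract, 4.83, 5.15 and 4.85, detected on none. In peritoneal mesothelium they read 10.01 to 12.45 and 6.64 to 11.57. Cdh16 and Tbx18 of the kidney and ureter list were undetected in bladder and not called higher. Only 2 of the 19 genes of the prostate and seminal vesicle list and 2 of the 11 of the kidney and ureter list could be tested.

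Mesothelial genes were detected in bladder in part. Of 17 genes of the mesothelium list, several of which the study picked from these same arrays, so that the list is not independent of them, 9 were higher in bladder than the mean and 0 lower. Among the 9 are Krt19, Upk3b, Igfbp6 and Wnt2b, which are also counted in other lists of this report. Ptgis, prostacyclin synthase, was higher than the mean by 3.17 on the log2 scale. The median log2 difference of the 17 was 1.36, but 0.07 with undetected tissues at the floor, 3 of them were detected on no bladder array, and 4 were called higher with the 10 irregular probes kept in the background estimate. Msln, mesothelin, read 8.96, 9.09 and 8.78 in bladder, 10.32, 8.62 and 8.44 in lung, and 11.86 to 12.01 in peritoneal mesothelium, a call lost in 5 of 33 alternatives. Wt1, the Wilms tumour factor, read 7.91, 8.06 and 8.11 against 8.58 to 8.88 in heart, and Muc16, a surface mucin, 8.30, 8.47 and 8.54 against 7.56 to 8.34. In peritoneal mesothelium both were above 11. Lung and heart, which also carry a serous coat, overlapped with or exceeded bladder for Msln and Wt1.

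Probes higher in bladder than in each solid tissue were also read in mesothelium. Of the 541 probes higher than in each tissue, 32 were at least as high in peritoneal mesothelium as in bladder and 7 in pleural and pericardial mesothelium. The median difference of bladder from these sources was 2.39 and 2.63 on the log2 scale, 248 and 222 of the 541 were detected on all 3 of their arrays, and 226 and 255 on none. Sprr2a1 was detected on 2 of 3 peritoneal arrays, at 9.19 and 8.01, and Acta2 read 7.30 to 7.71 there, both far under bladder.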

How the data were processed

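Illumina Mouse Sentrix-6 BeadChips were scanned and summarised by the authors in BeadStudio. They deposited, for each of 46120 probes on 24 arrays, a signal intensity that is not normalized between arrays, with 35.99% of values at or below 0, and a detection score, a fraction that rises with the signal. In a second deposited table the intensities are those the authors had quantile-normalized.

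The intensities were corrected with normexp in limma 3.58.1 (R 4.3.3; tables in Python 3.11.15), with the SD of the negative controls inferred from the scores, 10 probes whose scores fall off the steps of the others left out of that inference, and an offset of 16. They were quantile-normalized over 24 arrays and put on the log2 scale. The limma fit had 1 mean per tissue on 18 arrays, an assumed share changed of 0.01, and Benjamini-Hochberg adjustment over 15537 probes. It was tested on simulated data. Depth does not apply to arrays, whose number limits the precision.

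Names came from supplementary tables of the study (302 tested probes) or from the probe identifier, mostly its gene ID looked up in RefSeq (4509). Of 97 probes named both ways 92 had the same gene. Genes for the text were drawn from a set made by rule. Per list it held up to 8 genes called higher, 3 lower and 4 not called. It also held the 25 named probes with the largest smallest rise over the 5 tissues and up to 12 with the largest smallest drop. Of the latter there were 9, all named probes lower than each tissue. Called genes of the study's candidate table completed the set. Not every gene of the set is named in the text, for example Ppp2r5a, Optc and Mmp17. Members, lists and tests were chosen with earlier results of these data known, and the keratin, claudin, glucuronosyltransferase, P450 and collagen families were added after seeing the data. Genes of a list named without array values, such as Elf3, were added to that rule.

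To see whether equal replicate numbers pair arrays, residuals around tissue means were correlated. They correlated above 0.1 for all 3 numbers between bladder and heart (0.16 to 0.19) but not with the other 4 tissues, so no block was used. Alternatives were other background and normalization steps, other filters, the authors' values, adjusted p under 0.05, a replicate block and leaving out arrays or tissues.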

Additional observations from a re-analysis of the deposited data

How the results depend on the processing

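The main counts of probes higher than the mean, lower than the mean, higher than each tissue and lower than each were 1961, 1435, 541 and 41. Leaving out 1 array at a time gave 1729 to 2001, 1157 to 1625, 480 to 557 and 39 to 45. With the 10 off-step probes kept in the inference of the negative controls, the counts were 958, 697, 328 and 26, and background SDs estimated for the 24 arrays ran from 159 to 789, against 14.1 to 42.95 without them. Without lung 832 probes were higher than each tissue and 142 lower, and without adipose and without liver 68 and 76 were lower, where fewer contrasts had to pass. All other alternatives left the 4 counts within 1.5 times. Scaling to the 75th percentile moved the median of all probes from -0.04 to 0.13 on the log2 scale and the share of higher among called probes from 57.7% to 67.5% (2379 higher, 1147 lower). The replicate block gave 1972, 1428, 539 and 42, and ended none of the calls against the mean among named probes.

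Of 149 named probes called against the mean 67 kept the call in all 33 alternatives, and 82 lost it in at least 1, 34 of them only with the off-step probes kept. Of 57 calls against each tissue 29 were kept in all. Without liver the log2 difference turned positive for Cldn2 (0.11), Cyp2a12 (0.057), Cyp3a11 (0.11), Cyp2c23 (0.68) and Cyp2d26 (0.13), genes of which liver was the bright tissue, and with the off-step probes kept Gsta1 turned to -0.18. The cause of the latter was not tested. Folds of dim genes are limited by the background: where a tissue is undetected, the true difference may be larger than the bound given.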
